A study of Mus musculus with 6 samples.

Results

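The epithelial keratins examined here are 10 genes, Krt5, Krt7, Krt8, Krt14, Krt15, Krt18, Krt19, Krt20, Krt23 and Krt80, taken by symbol from the 21740 genes that the arrays measured. Each of the 10 had 1 row in the deposited table, and all 10 symbols matched a RefSeq gene. They were measured in the luminal epithelium of the mouse uterus, the sheet of cells that lines the uterine cavity and that a blastocyst attaches to. Wild-type females of a mixed C57BL6 and 129svj background, aged 2 to 4 months, were mated naturally with wild-type males. Epithelium was taken on gestation day 3.5 (D3.5), when blastocysts were found in the uterus, and on gestation day 4.5 (D4.5), when implantation sites were found. Both groups were wild type and pregnant, so the day was the difference between them that the labels give. The epithelium came off as sheets after dispase treatment and scraping. There were 3 Affymetrix arrays for each day, and the labels do not say whether an array held RNA of 1 animal or of several. A p-value here thus refers to the scatter among these samples, part of which may be technical.

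Keratins are the intermediate filament proteins of epithelial cells. A filament is built from pairs of 1 type I (acidic) and 1 type II (basic) chain, so a cell needs members of both types. The pair Krt8 and Krt18 is typical of simple, single-layered epithelia such as that of the uterus, where Krt7 and Krt19 are also found. The pair Krt5 and Krt14 marks the basal layer of stratified epithelia such as the epidermis. Of the members, Krt5, Krt7, Krt8 and Krt80 are type II and Krt14, Krt15, Krt18, Krt19, Krt20 and Krt23 type I. In RefSeq the type II genes and Krt18 lie on chromosome 15 and the other type I genes on chromosome 11. Krt8 and Krt18 are next to each other there, as are Krt80 and Krt7, Krt15 and Krt19, and Krt20 and Krt23.

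Of the 10 members, Krt19 fell on D4.5, Krt7, Krt20, Krt23 and Krt80 rose, and Krt5, Krt8, Krt14, Krt15 and Krt18 did not pass the test. The test was a limma fit over all 21740 genes with Benjamini-Hochberg adjusted p under 0.05. Krt19 alone also changed by at least 2-fold. Of all genes 44.4% passed in either direction, 18.0% up and 26.4% down, and 5.5% passed with at least 2-fold, so a count of 5 in 10 is close to the background and is not a result about keratins as a set. The median change of the members was 0.26 on the log2 scale, beside -0.07 over all genes. The values of the 3 D3.5 arrays and the 3 D4.5 arrays did not overlap for 7 of the 10, as for 58.6% of all genes.

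Promoters are shown for Krt7, Krt20 and Krt23, the members that rose and have one in the RefSeq table (build GRCm38.p6), so that members moving in the same direction can be read side by side. Of the 10 members 7 matched that table. Each line holds the 250 bases before the start, written 5′ to 3′ on the strand of the gene. Capitals mark matches on either strand to TATAAA (the TATA box), GGGCGG (a GC box), CCAAT (the CCAAT box), TGANTCA (the site of Jun and Fos factors) or CACGTG (an E-box). Each line holds matches to only 1 of these motifs, so no different motifs overlap.
Krt7 (chr15:101412153-101412402, + strand): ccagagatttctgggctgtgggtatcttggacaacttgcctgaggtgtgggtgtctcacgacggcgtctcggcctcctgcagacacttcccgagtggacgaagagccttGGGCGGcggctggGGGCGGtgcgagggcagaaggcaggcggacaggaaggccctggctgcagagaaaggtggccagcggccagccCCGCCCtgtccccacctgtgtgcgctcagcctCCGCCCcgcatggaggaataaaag
Krt20 (chr11:99438154-99438403, - strand): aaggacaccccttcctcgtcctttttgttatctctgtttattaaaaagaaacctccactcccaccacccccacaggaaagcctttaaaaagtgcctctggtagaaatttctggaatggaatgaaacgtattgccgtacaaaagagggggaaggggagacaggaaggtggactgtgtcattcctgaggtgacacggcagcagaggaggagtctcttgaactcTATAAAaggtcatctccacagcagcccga
Krt23 (chr11:99493121-99493370, - strand): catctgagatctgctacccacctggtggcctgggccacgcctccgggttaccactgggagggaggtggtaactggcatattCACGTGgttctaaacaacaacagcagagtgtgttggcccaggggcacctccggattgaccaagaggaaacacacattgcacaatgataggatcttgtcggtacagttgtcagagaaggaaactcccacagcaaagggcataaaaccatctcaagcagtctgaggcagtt
Krt7 held GGGCGG at 4 places, and 32.7% of 32851 promoters of the same length held it at least once. Krt20 held TATAAA, starting 29 bases before the start, as did 12.4% of promoters somewhere in the window. Krt23 held CACGTG, found in 6.02% of promoters. CCAAT (33.8% of promoters) and TGANTCA (6.75%) had no match in these 3 windows, and none of the 5 motifs had one in the windows of Krt5, Krt8, Krt14 and Krt18. No motif was shared between these 3 windows, which says nothing of the factors that bind there.

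Levels are given as quantile-normalized log2(intensity + 16), for D3.5 replicates 1 to 3 and D4.5 replicates 1 to 3, and changes are D4.5 minus D3.5 ± SE. As a guide to the low end of the arrays, 1337 genes of smell and taste receptors, proteins of sensory cells, were taken. On D3.5 95% of them had a mean level up to 6.52, on D4.5 up to 6.35, and the central 95% of their changes ran from -0.59 to 0.33. Of the receptor genes 30.1% passed the adjusted p, so that p alone does not set a small change apart.

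Krt19, a type I keratin that lacks the tail domain, is a common partner of Krt7 and Krt8 in simple epithelia. Its deposited intensities were 1317, 1201 and 1762 on D3.5 and 456.9, 391.7 and 580.7 on D4.5. After normalization it stood at 10.69, 10.17 and 10.71 on D3.5 and at 8.85, 8.69 and 9.23 on D4.5. Every D4.5 array was below every D3.5 array, and both days lay above the level of receptor genes. The mean fell 3.03-fold, from 10.53 ± 0.31 to 8.92 ± 0.28 (SD, n = 3 arrays a day; change -1.60 ± 0.19, limma adjusted p = 0.000594). Of all genes 0.851% had a lower change than Krt19. The call held in all 15 alternative fits, with changes between -1.78 and -1.12.

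The 3 genes with centred profiles over the 6 arrays most like that of Krt19, by the root mean square difference, were Stc1, which encodes the secreted hormone stanniocalcin (0.13), Ippk, an inositol phosphate kinase gene (0.13), and Smox, the spermine oxidase gene (0.149). Their changes were -1.74 ± 0.20, -1.42 ± 0.13 and -1.60 ± 0.16.

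Krt7 is a type II keratin of simple and glandular epithelia. Its intensities were 523.1, 638.5 and 806.8 on D3.5 and 914.5, 1011 and 849.5 on D4.5. Normalized, these were 9.25, 9.31 and 9.61 against 9.82, 9.96 and 9.76, so the days did not overlap, with D3.5 replicate 3 nearest to the D4.5 arrays. It rose 1.38-fold (change 0.46 ± 0.11, adjusted p = 0.0138). Without D4.5 replicate 2 the change was 0.40 and the call was lost (adjusted p = 0.0555).

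Krt8, the main type II keratin of simple epithelia, did not pass. It stood at 11.81, 11.54 and 11.80 on D3.5 and at 11.59, 11.49 and 11.53 on D4.5, with overlap between the days. Its change was -0.18, with a 95% confidence interval from -0.40 to 0.04 (adjusted p = 0.149). Without D3.5 replicate 2 it was -0.28 and passed (adjusted p = 0.0363).

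Krt18, the type I partner of Krt8, did not pass either. Its intensities were 1224, 2062 and 2229 on D3.5 and 2229, 2197 and 2160 on D4.5. The normalized values were 10.57, 10.98 and 11.06 on D3.5 and 11.06, 11.04 and 11.05 on D4.5. The D4.5 arrays lay within a range narrower than the spread of D3.5, where replicate 1 was low. The change was 0.18 (95% confidence interval -0.12 to 0.48, adjusted p = 0.279), and 0.03 without D3.5 replicate 1.

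Krt80 is a type II keratin known from differentiating cells of several epithelia. Its intensities were 182.9, 172.6 and 175.0 on D3.5 and 301.8, 273.4 and 271.6 on D4.5. Normalized, it stood at 7.54, 7.44 and 7.44 against 8.31, 8.22 and 8.25, so the days were far apart beside the small spread within each. It rose 1.72-fold (change 0.78 ± 0.07, adjusted p = 0.000161), and all 15 alternative fits kept the call, with changes of 0.63 to 1.06.

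Krt23 is a type I keratin that is induced in injured liver. It stood at 6.27, 6.64 and 6.31 on D3.5, with a mean at the level of receptor genes, and at 7.10, 7.29 and 6.96 on D4.5, above that level. The days did not overlap, and the gene rose 1.64-fold (change 0.71 ± 0.13, adjusted p = 0.00377). In the values as deposited, without normalization, the change was 0.30 and did not pass (adjusted p = 0.0602).

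Krt20, a type I keratin of the gut lining and the urothelial surface, stood at 5.88, 6.01 and 6.12 on D3.5 and at 6.85, 6.40 and 6.33 on D4.5. Its D3.5 mean was at the level of receptor genes, and D4.5 replicate 1 was the high array. The D4.5 values of 6.40 and 6.33 were close to the receptor limit of 6.35 for that day. Krt20 rose 1.44-fold by the fit (change 0.53 ± 0.14, adjusted p = 0.0208). Without D4.5 replicate 1 the change was 0.37 (limma adjusted p = 0.0311). The deposited intensities were 58.82, 56.90 and 64.60 on D3.5 and 84.35, 55.67 and 52.21 on D4.5. Before normalization the days thus overlapped, with a change of 0.05 (adjusted p = 0.761), and without D3.5 replicate 1 the call was lost at a change of 0.47 (adjusted p = 0.0591).

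The basal keratins Krt5, Krt14 and Krt15 had day means of 6.51 to 6.86, close to the receptor genes. Krt5 stood at 6.62, 6.43 and 6.50 on D3.5 and at 7.15, 6.66 and 6.76 on D4.5 (change 0.34 ± 0.13, adjusted p = 0.0665). With the replicate number as a block its adjusted p was 0.0352. Krt14 stood at 6.68, 6.75 and 6.73 on D3.5 and at 7.05, 6.67 and 6.72 on D4.5 (change 0.09 ± 0.11, adjusted p = 0.523). For both genes D4.5 replicate 1 was the highest of the 6 arrays, and without it the changes were 0.19 and -0.03. Krt15 stood at 6.89, 6.71 and 6.68 on D3.5 and at 6.65, 6.50 and 6.67 on D4.5 (change -0.15 ± 0.09, adjusted p = 0.193).

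**Figure D1:**
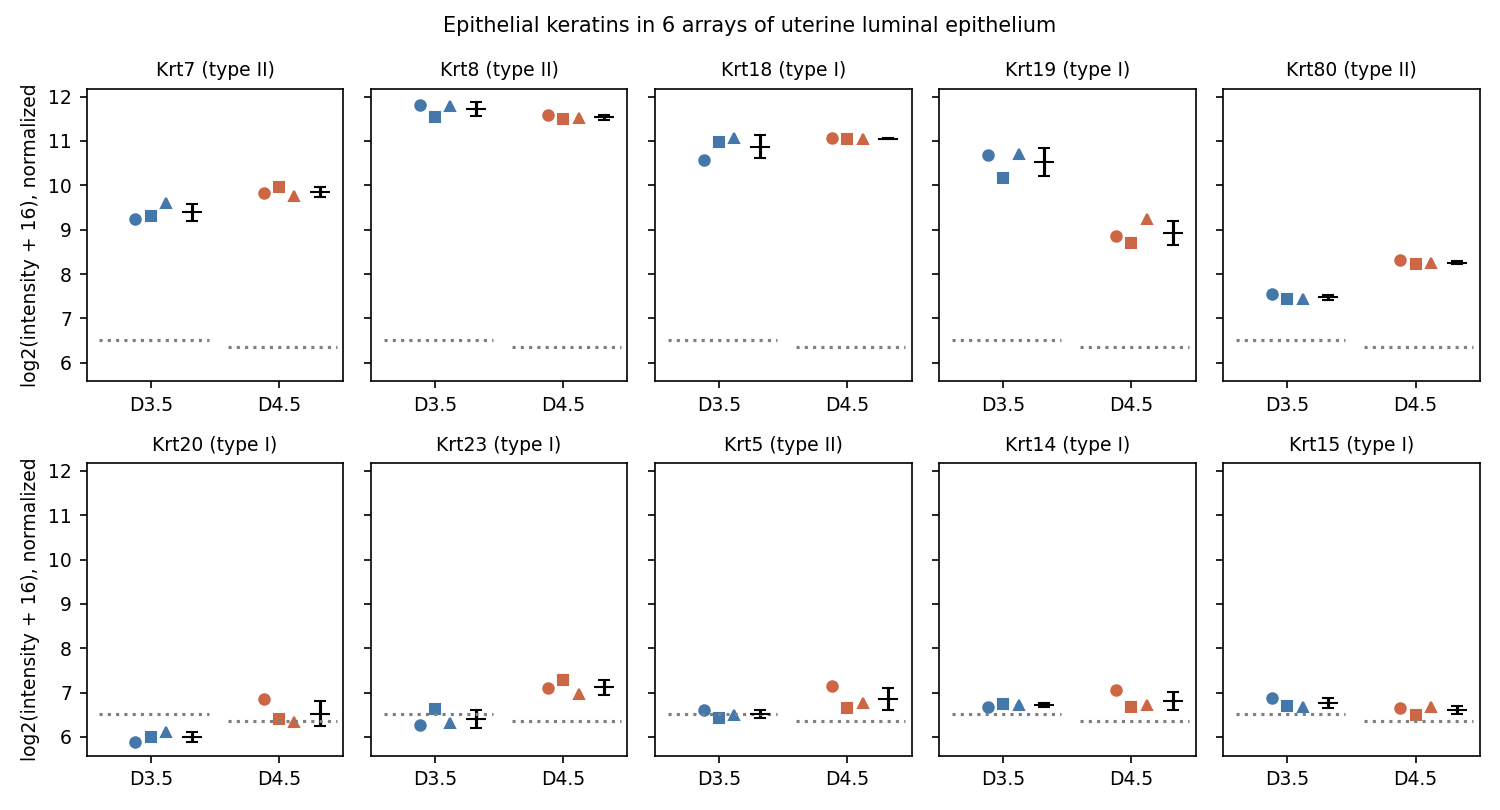
Normalized log2(intensity + 16) of the 10 epithelial keratins on D3.5 (blue) and D4.5 (orange). Circles, squares and triangles are replicates 1, 2 and 3, black bars are mean ± SD (n = 3), and dotted lines are the 95th percentile of receptor gene levels on that day (6.52 and 6.35). Krt19 drops from 10.53 to 8.92, while Krt8 and Krt18 stay near their D3.5 values.

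How far these changes depended on the scaling between arrays was examined next, since the deposited values had array medians between 108.6 and 118.4 at D3.5 but between 78.9 and 80.2 at D4.5. Over all genes the median change was -0.07 with quantile normalization, 0.02 with median centring and -0.40 when the deposited values were left unscaled. Since the labels give no processing batches, the gestation day and any difference in handling of its arrays cannot be told apart. With median centring Krt8 stood at 0.35 (adjusted p = 0.0495), Krt18 at 0.73 (0.0357) and Krt7 at 0.93, and 6 members rose and 1 fell, beside 28.0% and 19.6% of all genes. The sign of the change of Krt8 therefore turned with the scaling. In the values as deposited Krt14 (-0.33, adjusted p = 0.0421) and Krt15 (-0.59, adjusted p = 0.00132) passed as lower, Krt5 stood at -0.09, and 2 members rose and 3 fell, beside 11.4% and 61.8% of all genes. Taken relative to the median of all genes, median centring and the deposited values give the same change, since they differ by a shift of each array. On that relative scale the change of Krt14 was 0.16 with quantile normalization and 0.07 with either other scaling, and that of Krt15 was -0.08 and -0.19. For Krt8 it was -0.11 and 0.33, for Krt20 0.59 and 0.46, and for Krt23 0.78 and 0.70. For Krt19 it was -1.53 and -1.15, and for Krt80 0.85 and 1.03.

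**Figure D2:**
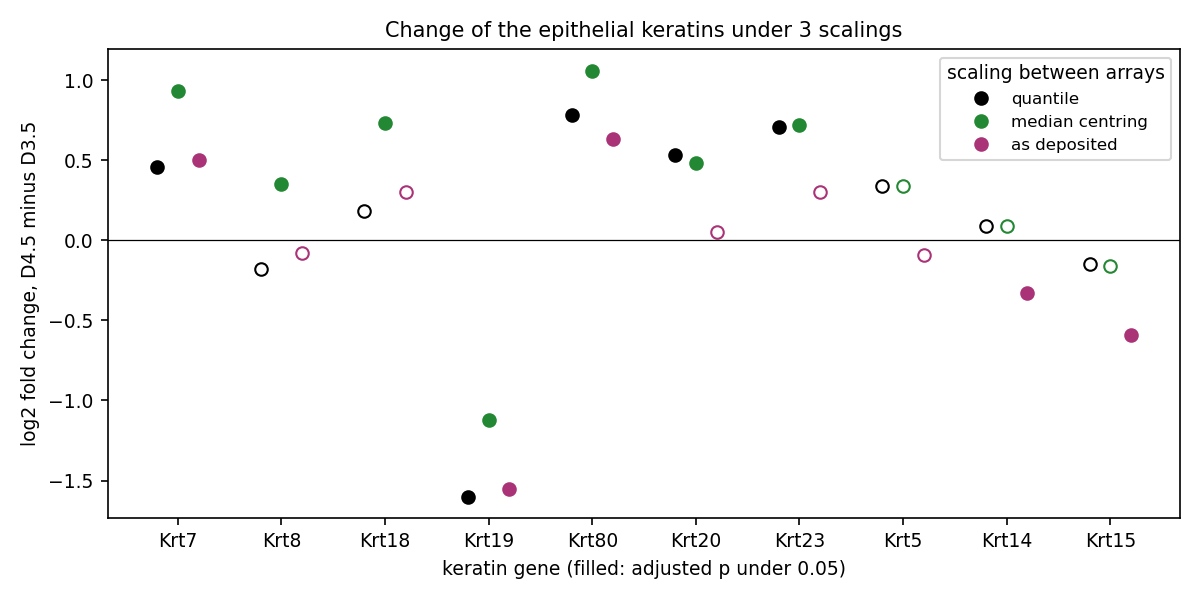
Log2 fold change, D4.5 minus D3.5, of the 10 keratins with quantile normalization (black), with median centring (green) and unscaled as deposited (purple). Filled points have adjusted p under 0.05. Under all 3 scalings Krt15 and Krt19 stay below 0 and Krt7, Krt18, Krt20, Krt23 and Krt80 above 0. Krt8, Krt5 and Krt14 change sign.

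Because a shift common to an array cancels in the difference of a pair, each type II member was set against a type I member known to pair with it, within each array. Such a difference shows unequal change, and its size within a day has no meaning of its own, since different probes are not on 1 scale. For Krt7 minus Krt19 it was -1.44, -0.86 and -1.10 on D3.5 and 0.97, 1.27 and 0.53 on D4.5. The difference rose by 2.06, from -1.14 ± 0.29 to 0.92 ± 0.37 (two-sided exact permutation test, p = 0.1, the smallest that 3 against 3 arrays can give). With each array left out in turn the shift was 1.87 to 2.24. For Krt8 minus Krt18 it was 1.24, 0.56 and 0.73 on D3.5 and 0.53, 0.44 and 0.48 on D4.5, a shift of -0.36 (exact permutation p = 0.1). Without D3.5 replicate 1 this shift was -0.16. For Krt5 minus Krt14 the shift was 0.25 (exact permutation p = 0.1), from -0.21 ± 0.13 to 0.05 ± 0.05. Both genes were close to the receptor genes, and the size of this shift varied with the constant added before log2. It was 0.30 with a constant of 1 and 0.17 with a constant of 64. Over the 3 pairs compared, with equal p-values, the adjusted p is also 0.1, and no permutation test of this size can pass a threshold of 0.05.

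**Figure D3:**
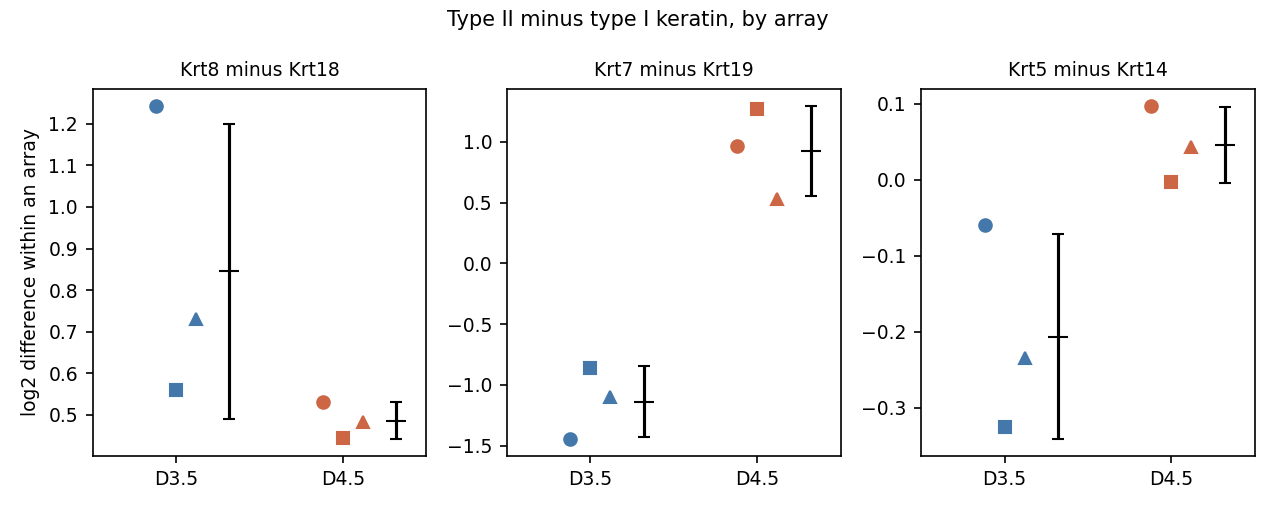
Within-array log2 difference of a type II and a type I keratin on D3.5 (blue) and D4.5 (orange), with a different vertical axis in each panel. Symbols are replicates 1 to 3 and black bars mean ± SD (n = 3). Krt7 minus Krt19 moves from -1.14 to 0.92, and D3.5 replicate 1 stands apart for Krt8 minus Krt18 at 1.24.

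The rest of the family was read from the same fit, in 27 other keratins and 13 hair keratins. Of the 27, 4 rose and 9 fell, with a median change of -0.16, and 14 stayed within receptor levels at both times. Over all genes 18.0% rose and 26.4% fell, with a median change of -0.07. Of the 21740 genes 6921 stayed within receptor levels at both times, and 5.5% passed with at least 2-fold. At least 2-fold rises were those of Krt17, Krt16 and Krt6b, and the 1 such fall was that of Krt10. Krt17, which is induced with Krt6 and Krt16 in wounded epidermis, stood at 7.16, 7.74 and 7.41 on D3.5 and at 10.56, 9.62 and 9.75 on D4.5. It rose 5.81-fold (change 2.54 ± 0.26, adjusted p = 0.000323), the largest change of any measured keratin. Krt6b stood at 5.70, 5.72 and 5.67 on D3.5 and at 7.47, 6.94 and 6.99 on D4.5 (change 1.44 ± 0.14, adjusted p = 0.000261), a rise from the level of receptor genes. Krt16, named after its values were seen, stood at 6.91, 6.26 and 6.32 on D3.5 and at 8.54, 7.39 and 7.71 on D4.5 (change 1.38 ± 0.30, adjusted p = 0.00871), also from the level of receptor genes. Krt6a, also named after its values were seen, did not pass (0.69 ± 0.26, adjusted p = 0.0615). Each of these 4 genes was highest in D4.5 replicate 1, as were Krt5, Krt14 and Krt20. Without that array the changes were 2.22 for Krt17, 1.25 for Krt6b, 1.02 for Krt16 and 0.36 for Krt6a.

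Krt10, the type I keratin of the upper epidermis, fell from 8.15, 8.36 and 8.48 on D3.5 to 6.53, 6.60 and 6.88 on D4.5 (change -1.66 ± 0.12, adjusted p = 8.75e-05). Krt75, a hair follicle keratin, changed by -0.65 ± 0.07 (adjusted p = 0.000472). Of the 13 hair keratins 0 rose and 2 fell, where 18.0% of all genes rose and 26.4% fell. The 2 were Krt86 (-0.42 ± 0.07) and Krt33b (-0.55 ± 0.18). Krt86 was at the level of receptor genes on either day, and both changes lie within the range of theirs. The call of Krt33b was lost with median centring, with a constant of 64, with the replicate block and when any 1 D4.5 array was left out. The sequences of Krt6a and Krt6b, and of Krt14, Krt16 and Krt17, are closely alike, and probes shared between them were not tested.

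**Figure D4:**
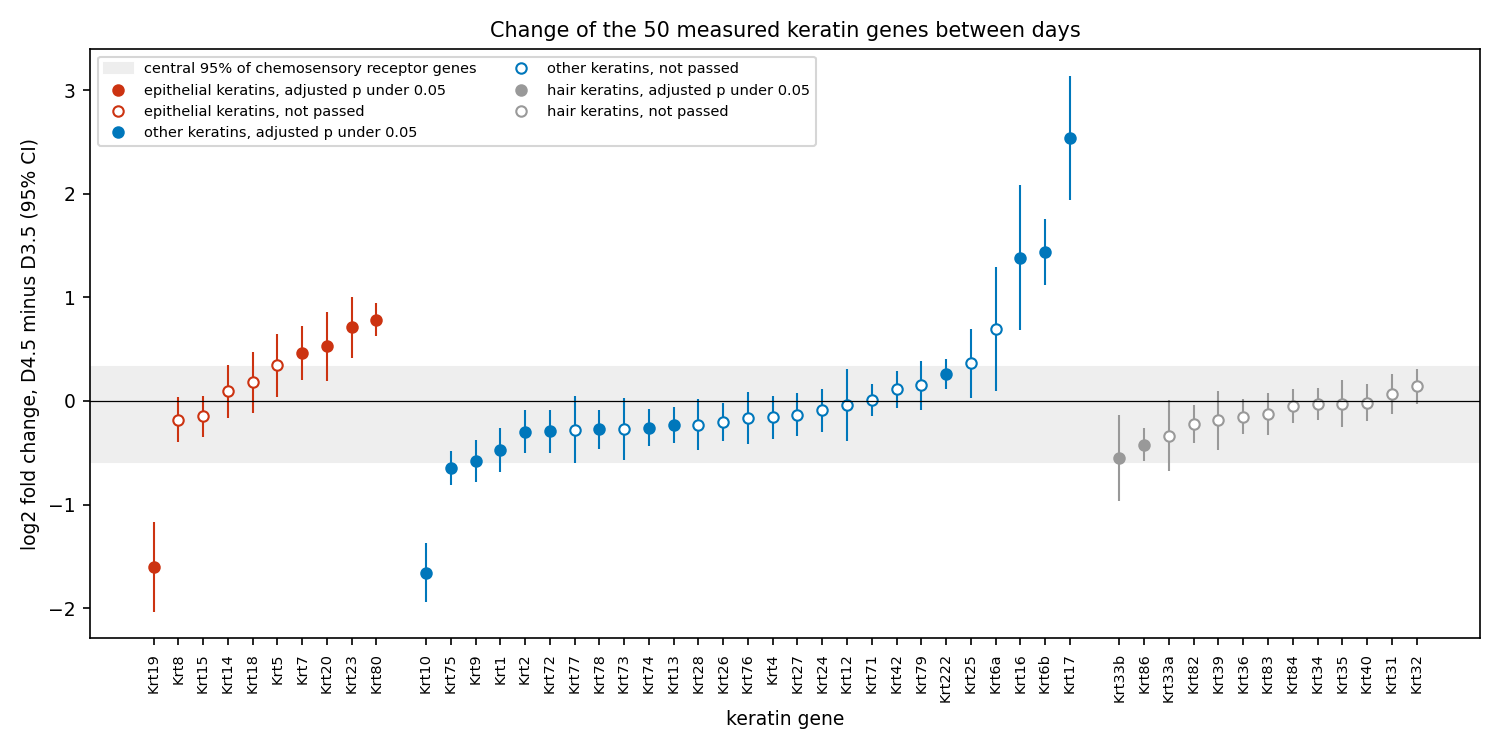
Log2 fold change, D4.5 minus D3.5, with its 95% confidence interval, of the 50 measured keratin genes, sorted within epithelial (red), other (blue) and hair keratins (grey). Filled points have adjusted p under 0.05, and the grey band is the central 95% of receptor genes (-0.59 to 0.33). Krt17 at 2.54 and Krt10 at -1.66 are the extremes, and Krt19 at -1.60 is the lowest of the epithelial members.

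Keratin filaments are held at desmosomes and hemidesmosomes by plakin proteins. Of 13 anchorage genes 2 rose and 2 fell, with a median change of -0.03, where 18.0% of all genes rose and 26.4% fell. Dst, which links keratin to hemidesmosomes, rose by 1.58 ± 0.11 and the plakin gene Eppk1 by 0.35 ± 0.06, while the plakin genes Dsp (-0.44 ± 0.07) and Ppl (-0.44 ± 0.12) fell. With median centring neither Dsp nor Ppl passed, and Ppl did not pass without D3.5 replicate 3 or D4.5 replicate 2 either. The changes of Dsp and Ppl lie within the range of receptor genes. Of 18 genes for proteins that bind or modify keratins 6 rose and 6 fell. Among them Sfn, an adaptor that binds phosphorylated keratin (1.64 ± 0.15), and the crosslinking enzyme gene Tgm2 (1.57 ± 0.23) rose. The kinase gene Mapk8 (-0.72 ± 0.10) and Casp6, a protease that cleaves type I keratins (-0.61 ± 0.09), fell, Casp6 without a call under median centring.

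Of 15 other intermediate filament genes 3 rose and 4 fell, where 18.0% of all genes rose and 26.4% fell. Nefh (0.78 ± 0.08) and the lamin gene Lmnb1 (0.51 ± 0.06) rose, and Bfsp1 (-0.76 ± 0.08) and Synm (-0.29 ± 0.06) fell, Synm within the range of receptor gene changes. Of 18 epithelial transcription factors 5 rose and 4 fell, among them a rise of Grhl1 (0.92 ± 0.10) and a fall of Grhl2 (-1.04 ± 0.09). Trp63, which drives Krt5 and Krt14 in basal cells and was named after its values were seen, did not pass (-0.16 ± 0.10). Of 20 cornified envelope genes 4 rose and 4 fell, led by the small proline-rich genes Sprr2b (2.51 ± 0.27) and Sprr2e (1.60 ± 0.25), both from the level of receptor genes. Sprr4 (-0.46 ± 0.08) and Lor (-0.58 ± 0.10) passed as lower, with changes within the range of receptor genes. Lor was at their level on either day and Sprr4 on D4.5.

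Markers of cell types that share keratins or could enter a scraped sheet were read beside these values. Their counts stand beside 18.0% of all genes that rose and 26.4% that fell. Of 13 epithelial markers 6 rose and 1 fell, with St14 at 0.82 ± 0.07 and Esrp1 at -0.35 ± 0.11, and their mean level went from between 9.91 and 10.30 to between 10.58 and 10.72. The call of Esrp1 was lost with median centring (0.14), as deposited (-0.29) and without D3.5 replicate 3 or any 1 D4.5 array (-0.38 to -0.24). Its change also lies within the range of receptor genes. Cdh1 and Epcam, adhesion genes that define epithelium, had means of 11.36 and 10.11 on D3.5 and of 11.41 and 10.24 on D4.5, far above receptor genes. In these bulk samples fewer cells of a type and less RNA per cell cannot be told apart. None of 9 stromal markers passed (Col3a1 at -0.29 ± 0.18), nor any of 7 endothelial markers (Tek at 0.48 ± 0.23) or 5 mesothelial markers (Msln at -0.19 ± 0.07). Of these lists 1 stromal marker and no endothelial or mesothelial one stayed within receptor levels at both times, beside 6921 of all 21740 genes. Their levels spread between arrays: the mean of the stromal markers was 7.72, 8.02 and 7.54 on D3.5 and 8.35, 7.70 and 7.10 on D4.5, and that of the endothelial markers 7.14, 7.54 and 6.95 and then 7.78, 7.29 and 6.66. D4.5 replicate 1, the array highest in Krt5, Krt14, Krt20, Krt6a, Krt6b, Krt16 and Krt17, was thus also highest in both lists. The order of the other D4.5 arrays was not shared. Both lists and Krt20 were lowest in replicate 3 of that day, and Krt5, Krt14, Krt6a, Krt6b, Krt16 and Krt17 in replicate 2. Of 8 leukocyte markers 2 rose, Csf1r (0.76 ± 0.13) and Emr1 (0.61 ± 0.18), both from the level of receptor genes, with list means of 6.97, 7.13 and 7.01 and then 7.67, 7.23 and 6.93. Neither passed as deposited (0.36 and 0.14), and Emr1 passed in only 1 of the 6 fits with an array left out. The part of these cells in the keratin values was not tested. The fits without D4.5 replicate 1 hold no term for cell content, and the lists still spread between the arrays left.

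Of 8 markers of basal or stratified epithelium 1 rose, the desmosomal cadherin gene Dsg3 (1.55 ± 0.18), and 4 fell, including Krt10 and Lgals7 (-0.56 ± 0.10). The other genes that fell were at receptor level on either day. The mean level of these 8 markers lay between 6.59 and 6.62 at D3.5 and between 6.33 and 6.49 at D4.5. For the counts in these lists too, 18.0% of all genes rose and 26.4% fell. Of 9 trophoblast and embryo markers 1 rose (Ascl2, 0.72 ± 0.09) and 3 fell, among them Elf5 (-1.01 ± 0.14) and Cdx2 (-0.55 ± 0.09). Of these 9 markers 4 stayed within receptor levels at both times, beside 6921 of all 21740 genes. Ascl2, at receptor level on D3.5, did not pass as deposited (0.28). Of 7 gland markers 3 rose and 2 fell, with Spink3 at 1.53 ± 0.09, Prss29 at 0.52 ± 0.10, Cxcl15 at -0.45 ± 0.09 and Foxa2 at -0.40 ± 0.13. Cxcl15 was at receptor level on either day, and Prss29 did not pass as deposited (0.09). The call of Foxa2 was lost with a constant of 64, with the replicate block and in 4 of the 6 fits with an array left out (-0.44 to -0.30). Smooth muscle markers gave 1 rise (Tagln, 0.28 ± 0.08) and 1 fall (Actg2, -0.26 ± 0.07) of 7, both changes within the range of receptor genes. Tagln lost its call with median centring, as deposited (-0.20) and in 4 fits with an array left out (0.24 to 0.30). Actg2, at receptor level on either day, lost it with the replicate block and in 3 such fits (-0.27 to -0.23). Erythroid markers gave 2 falls of 5 (among them Alas2, -0.45 ± 0.11). The changes of Lgals7, Cdx2, Cxcl15, Foxa2 and Alas2 also lie within the range of receptor genes.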

How the data were processed

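RNA of uterine luminal epithelium was measured on 6 arrays, and sample titles gave the day and replicate. The deposited table holds linear intensity values for 35556 rows. How they were summarised, with which software and on which build, is not given in the sources used here. Its deposited p-value and ratio (fold change) columns, the authors' own comparison, were not used, nor were the authors' mean and SD columns. The other deposited table of intensity values differed by over 0.01 in 1 row. Rows were named by symbol, and 25070 rows with 1 symbol gave 21740 genes. As a check that the days share row order, day means were correlated along 450 rows around the keratins (r = 0.899, against 0.370 and 0.374 when 1 day was shifted by 1 row). For arrays there is no sequencing depth, and precision is set by how many there are.

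Deposited intensities were taken to log2(intensity + 16), quantile normalized over all rows and averaged per symbol. The days were compared by limma 3.58.1 under R 4.3.3, using lmFit with eBayes. Tests were two-sided, p-values were adjusted by Benjamini-Hochberg for all genes at a threshold of 0.05, and no filter was set. The fit was tested on simulated data. Tables were handled with Python 3.11.15 and pandas 2.3.3. The members and gene lists were chosen with earlier results of these data known. Genes named are the members, from each list the 2 lowest p-values in each direction among genes that passed (or the lowest p where none did), and, leaving out clone names, the 3 profiles most like each member past 2-fold. Others are marked as named after their values were seen, and some genes that the rule names are not reported here. Alternatives were median centring, no scaling, constants of 1 and 64, genes above the median level, genes with 1 row, eBayes with both trend and robust options, weighted arrays, a replicate block, and leaving out single arrays.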

Additional observations from a re-analysis of the deposited data

How the results depend on the processing

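Of the members, Krt19 and Krt80 kept their direction and their call under all 15 alternatives, and Krt7 under all but the fit without D4.5 replicate 2 (0.40). The scaling mattered most. In the values as deposited 15914 genes passed in place of 9651, and 2 members rose and 3 fell in place of 4 and 1. Of the calls 40.6% were rises with quantile normalization, 58.8% with median centring and 15.6% as deposited, and of those past 2-fold 55.2%, 81.2% and 32.4%. Krt5 (-0.09), Krt14 (-0.33) and Tagln (-0.20) changed sign as deposited, and Krt8 (0.35), Esrp1 (0.14) and Col3a1 (0.04) with median centring. Krt14 (-0.03) did so without D4.5 replicate 1. The alternative's construction accounts for the counts among genes above the median level, where 10870 genes and 5 members were tested: 5771 genes passed, with 3 members, of which 2 rose. The cause of the other shifts was not tested.

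With 1 array left out, 6562 to 9788 genes passed (1103 to 1293 with 2-fold), 4 to 6 members changed, 3 or 4 rose and 1 or 2 fell. The 2 falls came without D3.5 replicate 2, where Krt8 passed. The pair shifts then were 1.87 to 2.24 for Krt7 minus Krt19, -0.51 to -0.16 for Krt8 minus Krt18 and 0.20 to 0.34 for Krt5 minus Krt14. With the replicate block 8283 genes and 6 members passed, Krt5 being the added one at 0.34. The pair shifts were those of the unpaired test, 2.06, -0.36 and 0.25, each with the smallest p of 0.25 that 3 pairs allow. The labels do not say whether the replicate numbers pair the samples. Deviations from the day means correlated with -0.06, 0.06 and 0.10 between arrays of the same number. Between different numbers the correlations ran from -0.20 to 0.16. With 3 arrays a day these values cannot decide whether the samples are paired. The genes above the median level and the variance settings were not run for the pairs, which use no variance model.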
